A study of Mus musculus with 4 samples.

Results

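Accessible chromatin was described at 10 genes grouped here as WNT inhibitors and feedback genes. They were Sost, Dkk1, Dkk2, Dkk3, Sfrp1, Sfrp2, Sfrp4, Frzb and Wif1, whose products are secreted, and Axin2, which acts inside the cell. Their peaks were found in 2 ways. Peaks that the authors' annotation assigned to one of the genes were taken, which gave 23 of 15221 assigned peaks and 8 of the 10 genes. Consensus peaks centred within 50 kb of a start site were added, which gave 69 of 85925 consensus peaks. In all there were 79 distinct peaks, of which 13 were in both sets. No peak was assigned to Sfrp4 or Wif1, and their start sites were therefore not located. The assigned peaks were selected on the same contrast that is described here: each has a deposited p below 0.05 and a log2 fold of 0.2 or more in size. Their folds are a description, not a test of the genes.

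The knockout libraries came from Ctsk-iCre;Plagl1fl/fl mice (2 libraries), in which a Cre recombinase driven by the cathepsin K gene meets floxed Plagl1, and the controls were Plagl1fl/fl mice (2 libraries). Plagl1 encodes an imprinted zinc finger transcription factor. All cells were cultured from the angle of the mandible of 8-week-old mice and kept for 3 days in osteogenic medium (dexamethasone, ascorbic acid and β-glycerophosphate), which drives osteoblast differentiation. ATAC-seq, which reads open DNA by where a transposase inserts sequencing adapters, was run on these periosteal stem and progenitor cells. Only the knockout carries Cre, so an effect of Cre and one of the deletion cannot be told apart, and the labels do not tie the libraries to separate animals. The authors assigned 0 peaks to Plagl1, so these tables do not check the deletion.

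Canonical WNT signalling starts when a WNT ligand joins a Frizzled receptor to the co-receptor LRP5 or LRP6, which spares β-catenin from the destruction complex and lets it act with TCF/LEF factors in the nucleus. Sclerostin (Sost) and Dickkopf proteins such as DKK1 block the co-receptor, whereas secreted Frizzled-related proteins (the Sfrp genes and Frzb) and WIF1 bind the ligands. AXIN2, a scaffold of the destruction complex, is itself a target of β-catenin and closes a feedback loop. In bone several of these proteins restrain osteoblasts, and sclerostin is made mainly by osteocytes.

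Promoters of 4 of the genes are shown because they differ in what the data hold at the start site: no peak at Sost, a peak with little difference at Axin2, and the weak promoter peaks of Dkk1 and Frzb that had positive folds. RefSeq sequences of assembly GRCm38.p6 were used, from 250 bases before the start site to 50 after it, and 7 of the 10 genes had one. The windows are chr11:101966966-101967265 (minus strand) for Sost, chr11:108920099-108920398 (plus strand) for Axin2, chr19:30549447-30549746 (minus strand) for Dkk1 and chr2:80447347-80447646 (minus strand) for Frzb. Capitals mark matches on either strand to 5 motifs: CTTTGAT (TCF/LEF), ACCACA (RUNX), CCACCC (KLF type), GGGGCCCC (a PLAGL1 palindrome) and TGANTCA (AP-1).
Sost: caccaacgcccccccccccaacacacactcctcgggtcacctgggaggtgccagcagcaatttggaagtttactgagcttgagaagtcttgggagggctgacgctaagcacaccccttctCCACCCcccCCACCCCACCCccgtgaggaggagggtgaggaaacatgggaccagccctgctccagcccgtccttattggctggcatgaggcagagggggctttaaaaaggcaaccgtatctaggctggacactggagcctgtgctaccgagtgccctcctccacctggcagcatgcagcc
Axin2: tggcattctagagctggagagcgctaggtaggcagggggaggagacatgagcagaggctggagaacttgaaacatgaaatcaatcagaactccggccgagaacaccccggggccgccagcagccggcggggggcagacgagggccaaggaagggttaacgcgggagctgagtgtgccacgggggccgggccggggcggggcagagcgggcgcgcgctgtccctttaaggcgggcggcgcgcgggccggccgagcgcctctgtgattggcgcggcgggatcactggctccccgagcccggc
Dkk1: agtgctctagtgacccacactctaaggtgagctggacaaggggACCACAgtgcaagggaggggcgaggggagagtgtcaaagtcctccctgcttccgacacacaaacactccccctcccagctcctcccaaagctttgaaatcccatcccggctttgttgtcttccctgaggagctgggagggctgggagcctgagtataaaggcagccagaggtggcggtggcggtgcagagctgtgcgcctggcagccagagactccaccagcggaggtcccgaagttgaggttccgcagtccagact
Frzb: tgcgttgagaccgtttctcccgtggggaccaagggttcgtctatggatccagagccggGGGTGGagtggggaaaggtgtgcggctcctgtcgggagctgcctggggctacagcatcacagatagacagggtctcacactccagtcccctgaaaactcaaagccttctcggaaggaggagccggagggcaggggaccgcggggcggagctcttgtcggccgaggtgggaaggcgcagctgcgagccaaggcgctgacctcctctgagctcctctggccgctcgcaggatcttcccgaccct

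Sost had 3 CCACCC matches, starting 130, 121 and 116 bases before its start site, and the last 2 share 1 base. Frzb had 1 such match on the other strand, which reads GGGTGG as printed, 192 bases before its start. Among promoters not shown, Sfrp2 and Dkk2 had such a match, 187 and 106 bases before their starts. At least 1 match stood in 31.5% of all 32851 promoters of the table. Dkk1 had 1 ACCACA match, 207 bases before its start, a motif held by 16.8% of promoters. Axin2 had no match to any of the 5, CTTTGAT included, which 3.73% of promoters hold. GC content was 62% in the Sost window, 70% in Axin2, 60.7% in Dkk1 and 64.7% in Frzb, against a median of 52.7%.

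The main comparison asked where accessibility differed between the knockout and the control. At the 10 genes it did not move one way: both peaks assigned to Sost were gained, the peaks of Dkk3 and Sfrp1 that passed were lost, and Axin2 and Dkk2 had 1 peak in each direction. Gained and lost here mean a deposited FDR below 0.05 with a fold above or below 0, and a fold above 0 is taken to be higher accessibility in the knockout. The tables label peaks gain or loss without naming the genotype, so if the ratio runs the other way, every gain named here is a loss and every loss a gain. By the authors' deposited table the 23 assigned peaks hold 4 gained and 5 lost ones, beside 17.6% gained and 13.1% lost among all assigned peaks. Counted by gene, 3 of the 8 genes with a peak had a gained one and 4 a lost one, against 24.5% and 20.6% of all 8173 such genes. Within 50 kb of the start sites, 2 of 69 peaks were gained (2.90%) and 3 lost (4.35%), beside 3.14% gained and 2.48% lost among all consensus peaks. The gained share was near that background, and the lost share rests on 3 peaks. Peaks with an unadjusted deposited p under 0.05 made up 14 of the 69 (20.3%) against 19.8% of all peaks. The windows had a median log2 fold of -0.09, with 28 peaks above 0 and 41 below, and 0.00 over all consensus peaks in the authors' deposited table.

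**Figure D1:**
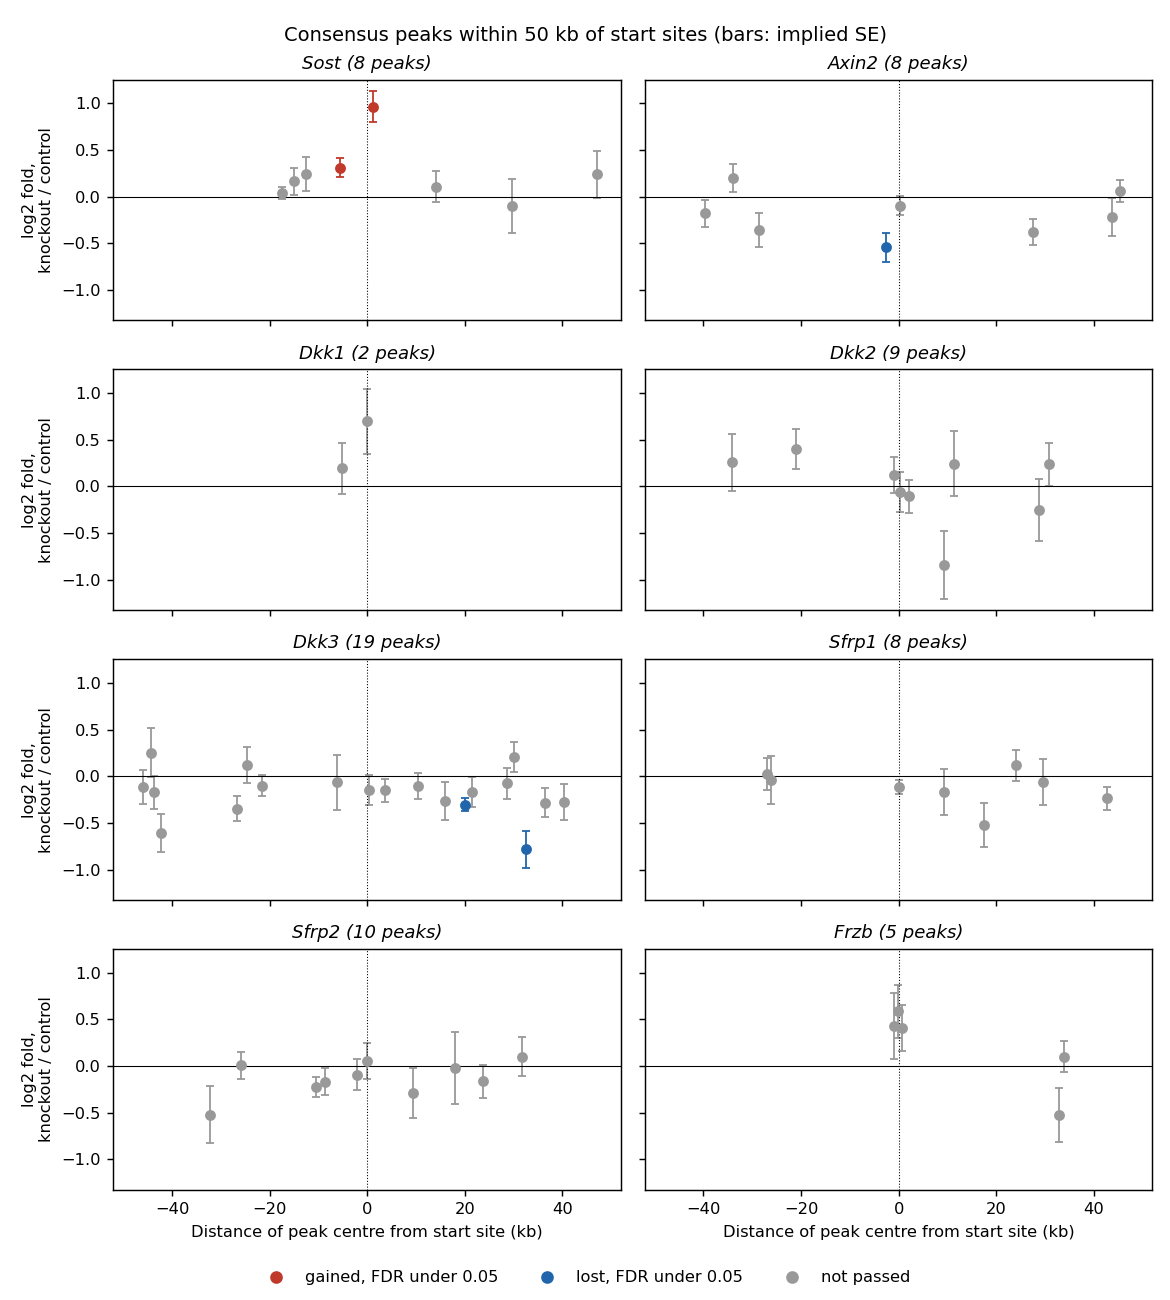
Deposited log2 fold (knockout over control) of each consensus peak against the distance of its centre from the start site in kb, 1 panel per gene, with bars of 1 implied SE. The Sost window has 7 of 8 peaks above 0 and the Dkk3 window 16 of 19 below 0, and 5 peaks in all passed the FDR.

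The authors' tables give 1 fold, 1 F statistic and 1 mean signal per peak. Values per library are not analysed here, and library depth is unknown. The SE printed beside a fold is the size of the log2 fold divided by the root of the deposited F. Genotype levels in CPM (reads in a peak scaled to a common library total) were worked out from the deposited mean and fold, taking the mean as midway between the genotypes, and are called implied. The implied SE followed signal almost alone (slope of log2 SE on log2 CPM -0.52), so the spread of a peak between its own libraries barely enters any deposited p or FDR.

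Sost, which encodes sclerostin, had the largest gain by fold of the 10 genes, inside its only intron. The peak spans chr11:101856466-101856859 (mm39, as for all peak positions), 1179 bp downstream of the start site, and had an implied 8.78 CPM in the knockout and 4.49 CPM in the control. Its log2 fold in the authors' deposited table was 0.97 (1.95-fold, SE 0.170, 95% interval 0.63 to 1.30, edgeR FDR 1.5e-05). By deposited p it ranked 92 of all 85925 peaks, and 266 gained peaks had at least its fold. The peak was of ordinary strength, since its mean of 6.63 CPM lies close to the median of 5.51 CPM over all peaks.

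The second gained Sost peak lies 5546 bp upstream, in the 3′ UTR in exon 3 of 3 of the neighbouring gene Dusp3, a dual-specificity phosphatase gene. It covers chr11:101862895-101863880 with an implied 19.7 CPM in the knockout and 15.9 CPM in the control. The authors' deposited table gives a log2 fold of 0.31 (SE 0.103) and an FDR of 0.0468, just inside the threshold. The other 6 peaks of the Sost window did not pass and had log2 folds between -0.10 and 0.25 in the authors' deposited table. The strongest of them, 17544 bp upstream, had an implied 44.1 CPM in the knockout and 43.0 CPM in the control, a log2 fold of 0.04 (SE 0.0667) from the authors' deposited table. Summed over the 8 peaks, the implied signal was 101.9 CPM in the knockout and 89.7 CPM in the control. The window median log2 fold was 0.20, a level reached by 14.8% of the 6855 windows of the same size around solved start sites, each of which also has an assigned peak. No peak covered the start site itself: the intronic peak began 982 bp downstream of it.

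The Dickkopf genes differed from one another. Dkk1, which encodes a high-affinity LRP5 and LRP6 antagonist, had 2 peaks in its window, both weak. The promoter peak (chr19:30526709-30527102, 206 bp before to 187 bp after the start site) had an implied 2.22 CPM in the knockout and 1.37 CPM in the control. Its log2 fold in the authors' deposited table was 0.70 (SE 0.352, p 0.0481, FDR 0.247), which did not pass. The Dkk1 peak 5183 bp upstream had 0.19 (SE 0.270) in the authors' deposited table. At this low signal the 95% interval of the promoter peak ran from 0.01 to 1.39.

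Dkk2, whose product can activate or block the co-receptors depending on context, had 1 lost and 1 gained peak, both far from its start site. The lost peak (chr3:131573114-131573355) lies 217819 bp upstream in intergenic DNA, with an implied 4.43 CPM in the knockout and 7.05 CPM in the control. The authors' deposited table gives it a log2 fold of -0.67 (SE 0.190, FDR 0.0170). The gained peak (chr3:131877280-131877748) lies 86461 bp downstream in intron 1 of 3, on a repeat of the MER121 family of DNA transposons. Its implied signal was 8.22 CPM in the knockout and 5.39 CPM in the control, and the authors' deposited table has it at 0.61 on the log2 scale (SE 0.167, FDR 0.0124). Nearer the gene, 9 peaks lay within 50 kb and none passed the edgeR FDR, while 1 had an unadjusted p under 0.05. That peak, 9224 bp downstream in intron 1, was weak, with an implied 1.34 CPM in the knockout and 2.41 CPM in the control (log2 fold -0.85, SE 0.364, FDR 0.153, authors' deposited table). Summed over the 9 peaks, the knockout had 31.9 CPM and the control 31.1 CPM. Of the other Dkk2 peaks upstream, those at 173941 bp and 171581 bp had log2 folds of 0.72 and 0.41 and did not pass (FDR 0.0951 and 0.127, authors' deposited table).

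Dkk3, a divergent Dickkopf gene whose product has no settled part in blocking LRP5 and LRP6, had the largest number of peaks, and most leaned below 0. Its window held 19 peaks, a number matched or passed by 1.23% of the 6855 windows, with 16 below 0 and 3 above. The stronger lost peak (chr7:111737448-111738357, 20001 bp downstream, intron 3 of 6) had an implied 40.3 CPM in the knockout and 49.8 CPM in the control. In the authors' deposited table its log2 fold was -0.30 (SE 0.0665, FDR 0.000943). The weaker lost peak (chr7:111725106-111725469) lies 32616 bp downstream in the same intron, with an implied 4.03 CPM in the knockout and 6.94 CPM in the control. It had the larger fold, -0.78 on the log2 scale (SE 0.196, FDR 0.00514, authors' deposited table). A peak between them, 30079 bp downstream, had 0.21 (SE 0.158, FDR 0.491) in the authors' deposited table.

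At the far edge of the Dkk3 window, 42241 bp upstream, the authors' deposited table has a peak assigned to Mical2 at -0.61 on the log2 scale (SE 0.204), which missed the threshold with an FDR of 0.0519 and passed with the trend along signal subtracted (adjusted p 0.0391). The assigned peak 26772 bp upstream had -0.35 (FDR 0.102), and the one 55586 bp downstream, inside intron 23 of 28 of Usp47, had 0.40 (FDR 0.245), both from the authors' deposited table. The 19 peaks of the window summed to an implied 163 CPM in the knockout and 188 CPM in the control. The median log2 fold was -0.15, and 11.6% of the windows had a median as low. The authors' annotation places 2 Dkk3 start sites 786 bp apart, and distances here are from the one with more peaks.

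Axin2, the feedback scaffold, had its lost peak just upstream of the start site and its gained peak on a repeat far away. The lost peak (chr11:108808322-108808856, intergenic, 2853 to 2319 bp upstream) had an implied 6.66 CPM in the knockout and 9.71 CPM in the control. The authors' deposited table gives a log2 fold of -0.54 (SE 0.158, FDR 0.0200). Over the start site itself lies a stronger peak, 220 bp before to 703 bp after it, with an implied 18.2 CPM in the knockout and 19.5 CPM in the control. That peak had -0.10 (SE 0.101, 95% interval -0.30 to 0.10, FDR 0.639) in the authors' deposited table, so no difference was detectable at the promoter.

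In the Axin2 window 6 of 8 peaks were below 0 and the median log2 fold was -0.20, which 7.00% of windows equalled or went below. The sum over the 8 peaks was an implied 75.9 CPM in the knockout and 84.3 CPM in the control. Assigned peaks at 28692 bp upstream and at 27506 bp (intron 10 of 10) and 60572 bp downstream had log2 folds of -0.36, -0.38 and -0.51 in the authors' deposited table. None of the 3 passed, with FDR values of 0.247, 0.0931 and 0.0983. The peak at 64812 bp had the opposite sign, 0.50 (SE 0.219, FDR 0.168, authors' deposited table).

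The gained Axin2 peak (chr11:108902473-108902912) stands 91517 bp downstream, in intergenic DNA annotated as a large-subunit ribosomal RNA repeat. Its signal was the highest of all 79 peaks, an implied 155 CPM in the knockout and 127 CPM in the control. The log2 fold was 0.30 (SE 0.0382, FDR 3.62e-10) in the authors' deposited table. Such repeats draw reads from many genomic copies, so a read counted there need not come from this locus. The authors' table holds 8 assigned peaks on ribosomal RNA repeats. Of these 7 were gained and 0 lost, beside 17.6% and 13.1% of all assigned peaks, and the 1 other was below 0. The 7 gained ones had log2 folds of 0.21 to 0.30 in the authors' deposited table, and the Axin2 peak had the highest of them. The part of multi-copy reads in this result was not tested further. Of 13 assigned peaks in the MER121 family of the gained Dkk2 peak, 11 lay below 0, against 6593 of all 15221 assigned peaks. By FDR 1 of the 13 was gained, the one at Dkk2, and 3 were lost, beside the same 17.6% and 13.1%. Both repeat peaks lie outside the 50 kb windows. Of all assigned peaks, 15.6% lay on a repeat, against 2 of the 23 here.

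**Figure D2:**
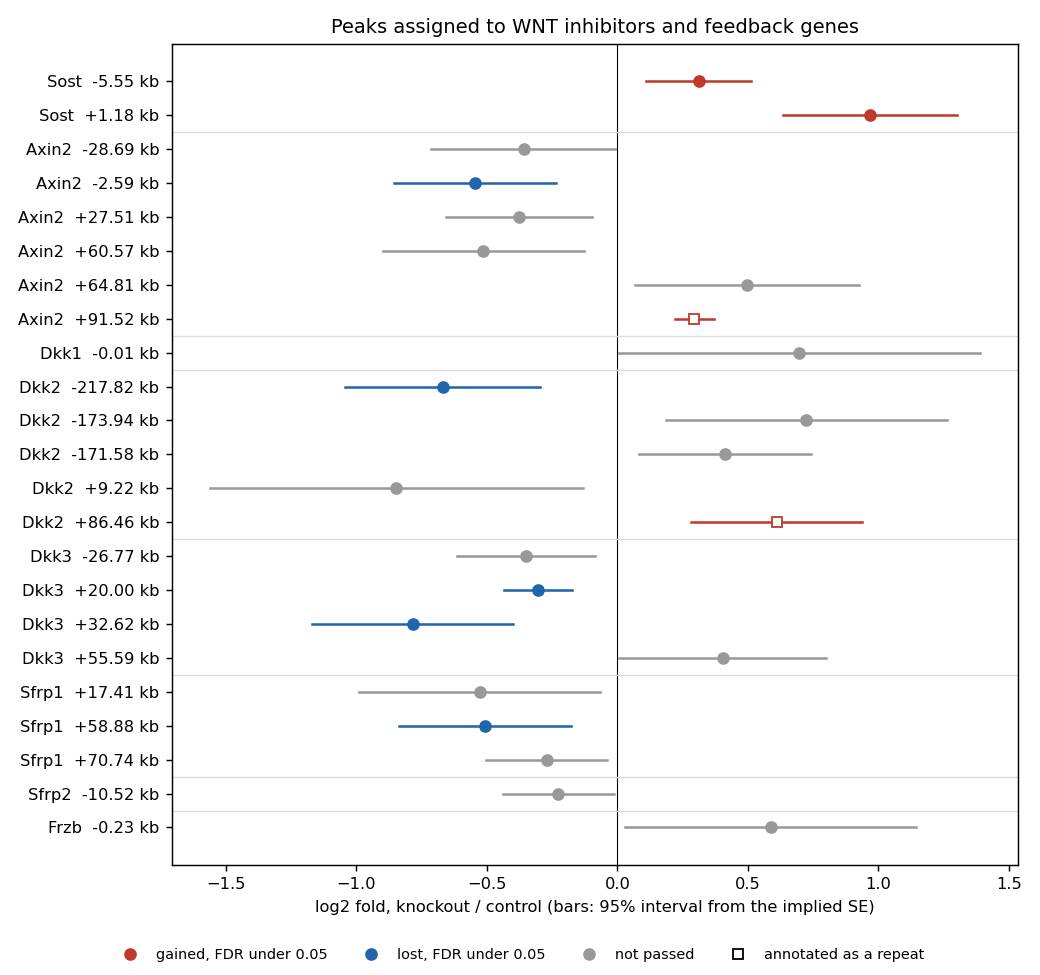
Deposited log2 fold (knockout over control) of the 23 peaks assigned to the genes, labelled by distance from the start site, with 95% intervals from the implied SE; open squares are peaks annotated as repeats. The Sost intron peak at 0.97 lies farthest from 0 among those that passed, and 2 of the 4 gained peaks are repeats.

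Among the genes whose products bind WNT ligands, Sfrp1 alone had a peak past the threshold. That peak (chr8:23960020-23960772) lies 58878 bp downstream in intergenic DNA, with an implied 5.92 CPM in the knockout and 8.41 CPM in the control. The authors' deposited table has it lost at -0.51 on the log2 scale (SE 0.168), with an FDR of 0.0478, the nearest to the threshold from inside. The other assigned Sfrp1 peaks, 17413 bp downstream in intron 2 of 2 and 70744 bp downstream, had -0.53 (FDR 0.175) and -0.27 (FDR 0.163) in the authors' deposited table. The Sfrp1 window had 0 of 8 peaks past the edgeR FDR and 1 with an unadjusted p below 0.05, with 6 below 0 and a median log2 fold of -0.09. The window summed to an implied 73.8 CPM in the knockout and 80.2 CPM in the control.

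Sfrp2 had 10 window peaks, 7 of them below 0, and none passed the edgeR FDR. Its assigned peak, 10517 bp upstream, was the only one with an unadjusted p under 0.05 and had an implied 15.3 CPM in the knockout and 17.9 CPM in the control. The authors' deposited table gives that peak a log2 fold of -0.23 (SE 0.108, FDR 0.215). Over the whole window the implied sums were 62.1 CPM in the knockout and 67.9 CPM in the control.

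Frzb leaned the other way near its start. A trio of peaks within 1088 bp of the start site had log2 folds of 0.43, 0.59 and 0.41 in the authors' deposited table, and none passed. The middle one, the promoter peak (chr2:80277637-80278296), had an implied 3.06 CPM in the knockout and 2.04 CPM in the control (SE 0.285, p 0.0395, FDR 0.222, authors' deposited table). All 3 were below the median signal of 5.51 CPM. Of the other Frzb peaks, the one 32809 bp downstream had -0.53 (SE 0.292) and the one 33888 bp downstream 0.10 (SE 0.166) in the authors' deposited table. The window summed to an implied 18.2 CPM in the knockout and 16.2 CPM in the control.

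Peaks covered the start site of 6 of the 8 genes, against 64.9% of the 6855 genes with a solved start site. None of the 6 passed the edgeR FDR, though 2 of them, at Dkk1 and Frzb, had an unadjusted p below 0.05. Over the 4451 genes with a peak over the start site, the median log2 fold of such peaks was -0.065. Per kb of peak, Sfrp1 was the most open, with an implied 31.6 CPM per kb in the knockout and 34.2 in the control. Axin2 followed with 19.7 CPM per kb in the knockout and 21.1 in the control. Sfrp2 had 7.42 in the knockout and 7.16 in the control, and Dkk2 6.35 in the knockout and 6.60 in the control. Lowest were Dkk1, with 5.63 in the knockout and 3.47 in the control, and Frzb, with 4.64 in the knockout and 3.09 in the control. Only Sfrp1 exceeded the median of 25.3 CPM per kb over all start-site peaks. At Dkk3 the nearest peak began 122 bp downstream of the start site, at -0.14 on the log2 scale (SE 0.161) in the authors' deposited table.

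**Figure D3:**
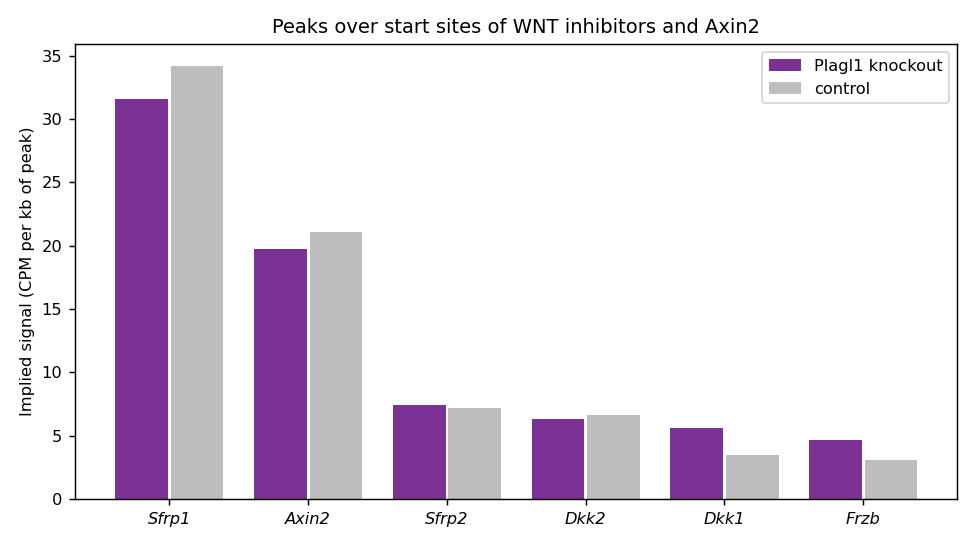
Implied accessibility, in CPM per kb of peak, of the peaks that cover a start site, with the knockout at the left of each pair and the control at the right; there are no error bars because values per library are not analysed here. Sfrp1 and Axin2 are the most open, and Dkk1 (5.63 against 3.47) and Frzb (4.64 against 3.09) show the widest gap in relative terms without passing the FDR.

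The edges of the selection were close in places. The farthest peak inside a window was at Sost, 47118 bp downstream (log2 fold 0.24), and the nearest outside was at Sfrp1, 50093 bp downstream (0.48, FDR 0.537), in the authors' deposited table. The nearest assigned peak beyond the FDR threshold was the Axin2 peak at 27506 bp, with 0.0931. An Sfrp1 peak 42644 bp downstream had a p of 0.0591 and so fell just short of being assigned, whereas Axin2 at 28692 bp upstream had 0.0482.

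Fold and signal were related over all consensus peaks, with weak peaks tending above 0 and strong ones below. With a running median over 2001 peaks subtracted, all 9 called peaks of the genes kept their call, with adjusted p from 2.82e-14 to 0.0447. The Mical2 peak in the Dkk3 window passed in addition, which made 4 lost peaks in the windows. With an assumed coefficient of variation of 0.1 between libraries of a genotype, the Sost intron peak was the only one of the 9 to pass (adjusted p 0.0350). The other 8 ran from 0.226 to 0.673 under that assumption, and 55 of all consensus peaks passed.

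**Figure D4:**
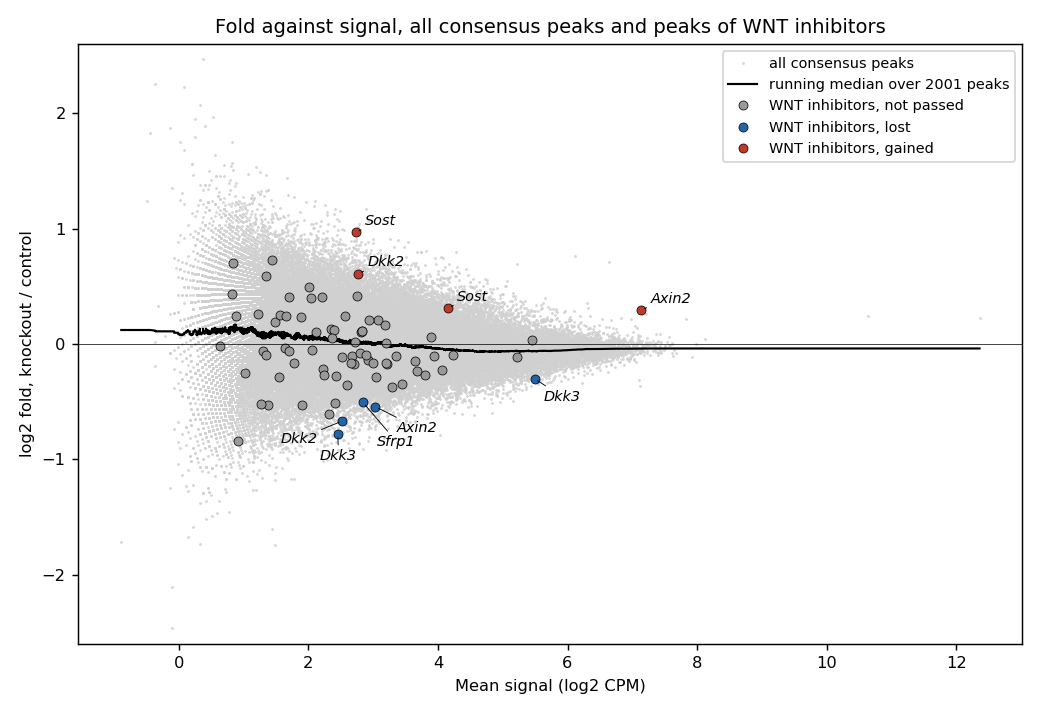
Deposited log2 fold (knockout over control) against deposited mean signal in log2 CPM for all 85925 consensus peaks in grey, with the 79 peaks of the 10 genes as larger points and the running median as a black line. The Sost intron peak and the Axin2 repeat peak lie at the upper edge of the cloud for their signal, and the lost peaks of Dkk2, Dkk3, Axin2 and Sfrp1 towards the lower edge.

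Other WNT genes were counted by role, beside 24.5% of all genes with an assigned peak that had a gained one and 20.6% that had a lost one. Of 25 genes for ligands and their secretion, 15 had an assigned peak, 0 a gained one by the edgeR FDR and 4 a lost one, although 8 of their 26 peaks were above 0 with an unadjusted p under 0.05. The named ligand peaks in the authors' deposited table were those of Wnt11 (-0.56, inside Uvrag), Wnt5a (-0.43, inside Erc2) and Wnt2 (-0.42), each more than 50 kb from the start site of its gene. Of 19 receptor genes, 10 had a peak, 2 a gained one and 6 a lost one, with 1 gene in both counts. Lrp5, the co-receptor that sclerostin blocks, had 2 lost peaks in intron 5 of 22, at -0.31 (FDR 0.00229) and -0.36 (FDR 0.00415) in the authors' deposited table. Fzd6 had a lost peak (-0.34), and Fzd8 had a gained peak at 0.48 and a lost one over its promoter at -0.20, all from the authors' deposited table. The Fzd8 promoter peak no longer passed once the trend along signal was subtracted (adjusted p 0.174).

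Of 17 intracellular and nuclear effectors, 7 had a peak, 0 a gained one and 5 a lost one, with 7 of 20 peaks above 0 at an unadjusted p under 0.05. Tcf7l1 (-0.33, in exon 1 of 13), Dvl3 (-0.28) and Tcf7l2 (-0.25) lost accessibility within 1 kb of their start sites in the authors' deposited table. The median log2 fold of peaks over start sites was -0.065 over all genes with one. The Tcf7l2 peak no longer passed once the trend was subtracted (adjusted p 0.0529), and the effectors with a lost peak were then Tcf7l1, Dvl3 and Bcl9. TCF7L1 and TCF7L2 are nuclear partners of β-catenin, and DVL3 relays the signal from Frizzled. Of 18 further inhibitors, 9 had a peak, 4 a gained one and 0 a lost one, with 8 of 21 peaks below 0 at an unadjusted p under 0.05. Those with the smallest FDR were assigned to Shisa2 (1.13, 134894 bp from its start site and inside Atp8a2), Tle3 (0.44, on a repeat) and Kremen1 (0.59, on a repeat) in the authors' deposited table, and 3 of the 6 gained peaks lay on repeats. Shisa proteins are known from frogs to hold Frizzled inside the cell, KREMEN1 binds Dickkopf proteins and TLE3 is a co-repressor of TCF factors. Together, 32 genes of the ligand, receptor and effector lists had a peak, 2 with a gain and 15 with a loss. Of the genes listed as inhibitors, the 10 genes included, 17 had a peak, 7 with a gain and 4 with a loss. Over all genes 24.5% had a gain and 20.6% a loss. The ligand, receptor and effector lists go by place in the pathway and not by direction of effect. The effector list also names the destruction complex genes Apc, Axin1 and Gsk3b, which had no assigned peak. Dkk2 and Dkk3 are counted as inhibitors, though their part in blocking the co-receptors varies or is not settled. With repeats left out, the listed inhibitors had 4 with a gain and 4 with a loss, and the other counts were 2 and 15 as before. With the trend subtracted, the ligand, receptor and effector lists had 1 gene gained and 10 lost, and the listed inhibitors 6 gained and 5 lost. Over all consensus peaks that subtraction took the lost count from 2134 to 1329 and the gained count from 2699 to 2726. Shares over all genes were not computed with repeats left out or the trend subtracted, so 24.5% and 20.6% are no background for those counts. With the assumed coefficient of variation of 0.1, no gene of these 4 lists kept a called peak.

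**Figure D5:**
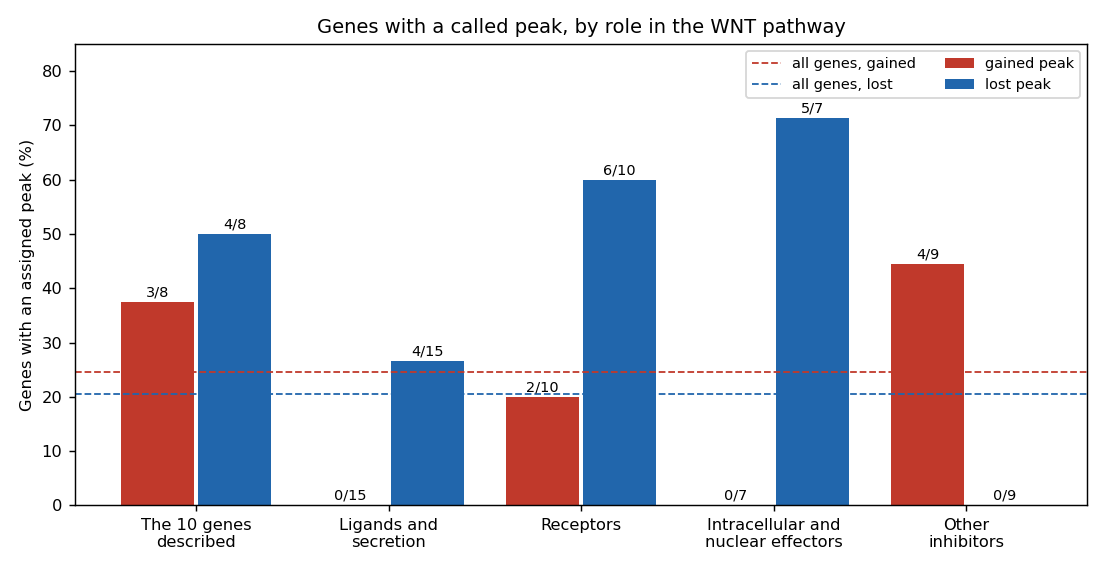
Share of genes with an assigned peak, in percent, that had a gained (red) or a lost (blue) peak, for the 10 genes and for 4 lists of other WNT genes, with counts above the bars and dashed lines at the 24.5% and 20.6% of all genes. Effectors (5 of 7 lost) and receptors (6 of 10 lost) stand above the lost line, and the further inhibitors have no lost peak. A gene counts once any of its peaks is called, so genes with more peaks are counted more easily. Effectors had 20 peaks over 7 genes and receptors 29 over 10, against 15221 over 8173 for all genes. By peak, 7 of 20 and 7 of 29 were lost, against 13.1% of all assigned peaks.

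Markers of several cell types, periosteal cells included, were counted in the same comparison, beside the same 24.5% gained and 20.6% lost over all genes. With the assumed coefficient of variation of 0.1, none of their called peaks passed, and the lowest adjusted p was 0.220, at Phex. Of 8 macrophage and osteoclast genes 7 had an assigned peak, 6 a gained one and 0 a lost one, and all 15 of their peaks were above 0. Those 15 peaks summed to an implied 265 CPM in the knockout and 201 CPM in the control, and Cd68 had no assigned peak. Osteocyte markers, genes of the cells known to make sclerostin, had no gain beside that of Sost: of 5 genes, 0 had a gained peak and 3 a lost one, with 3 of 7 peaks above 0 at an unadjusted p under 0.05. Their lost peaks in the authors' deposited table were at Phex (-0.71), Mepe (-0.70) and Fgf23 (-0.25, on a LINE repeat), and the 7 peaks summed to 60.8 CPM in the knockout and 67.5 CPM in the control. The Fgf23 peak no longer passed with the trend subtracted (adjusted p 0.196), and 2 osteocyte genes then had a lost peak. Of the osteoblast markers 3 of 6 had a peak, 1 a gained one and 0 a lost one, with 3 of 6 peaks above 0. The authors' deposited table has the gained one at Alpl (0.98, on a repeat, at a low mean of 2.46 CPM). The 6 osteoblast peaks summed to an implied 91.0 CPM in the knockout and 97.5 CPM in the control. Of the periosteal and mesenchymal markers 4 of 6 had a peak. In the authors' deposited table there were gained peaks at Ctsk (0.35 and 0.32), the gene whose regulatory sequence drives the Cre, and a lost one at Pdgfra (-0.55). Ctsk was counted here and not among the macrophage and osteoclast genes, and no other gene of the periosteal list had a gained peak. Of the 10 peaks of that list 6 lay below 0, and they summed to an implied 152 CPM in the knockout and 155 CPM in the control. A marker without an assigned peak is not thereby closed, since peaks short of the p and fold limits carry no gene. In bulk libraries a change in the share of a cell type and a change within cells cannot be told apart, and the part of cell makeup in the Sost gain was not tested.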

How the data were processed

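ATAC-seq was run on 2 knockout and 2 control libraries, grouped by their titles. The submitters' processing notes list HOMER, DiffBind 3.16.0, Bowtie2 2.5.4, SAMtools 1.21, Trim Galore 0.6.10, deepTools 3.5.5 and GATK 4.5.5.0, and the build mm39. Their roles are not stated. How peaks were called, whether reads were shifted for the transposase and how libraries were normalized is not given in the sources used here.

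The authors' first table holds, per the file headers, an edgeR result for each consensus peak: its log2 fold change, mean log2 CPM, F score, p-value and FDR. Their second, deposited in the layout of a HOMER annotation, gives the nearest gene, region and distance. Its peaks all have a p below 0.05 and a log2 fold of 0.2 or more in size. Recomputed Benjamini-Hochberg values differed from the deposited FDR by at most 6.73e-06, and chi-square p-values of F had a median ratio of 1.00 to the deposited ones. A count fit had been planned for the case of counts per library, and none was run. Depth per library is unknown. There were 0 columns of unassigned libraries.

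Start sites were solved from peak centres and deposited distances, with the strand from agreement between peaks or from RefSeq. Windows of 50 kb were taken on both sides. Motifs were searched on both strands of RefSeq promoters of GRCm38.p6; mm39 peaks were placed by distance alone. Peak starts and ends are as deposited, and the deposited width is 1 base more than they span. The alternatives were a stricter FDR, a minimum fold or signal, no repeats, a subtracted trend, an assumed coefficient of variation and other windows. The calling and trend steps were tested on simulated data, and the solving of start sites and the windows on made-up peaks.

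Every one of the 10 genes was named with its peaks, and up to 3 other WNT genes per role by smallest FDR. The genes, lists and markers were chosen with earlier results of these data known, so no count over them is independent support. The role and marker lists under other settings were added after the values were seen. The software was Python 3.11.15 with scipy 1.17.1, pandas 2.3.3, matplotlib 3.10.9 and numpy 2.4.6.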

Additional observations from a re-analysis of the deposited data

How the results depend on the processing

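Of the 4 gained and 5 lost assigned peaks, 2 gained and 2 lost passed at an FDR under 0.01. With a minimum log2 fold of 0.5 in size the gained count was 2, with repeats left out it was 2, and within 50 kb it was 2 gained and 3 lost. In the 50 kb windows, with 2 gained and 3 lost, the gained count was 1 at an FDR under 0.01 and 1 with the minimum fold. Shares over all peaks were not computed at the stricter FDR, with the minimum fold or with repeats left out, so those counts have no background. In windows of 100 kb the counts were 7 gained and 5 lost among 123 peaks, beside 3.14% gained and 2.48% lost among all consensus peaks. The 5 added gained peaks were assigned to Tlr2 or Nckap1 or lay on the Axin2 and Dkk2 repeats. With an assumed coefficient of variation of 0.1, assigned peaks were 1 gained and 0 lost and window peaks 1 gained and 0 lost, and the cause was the wider assumed error by construction. Subtracting the trend along signal kept the direction and call of 9 of 9 named peaks and added the Mical2 peak to the lost window peaks, which made 4. No paired analysis was possible because the tables give 1 fold, 1 F statistic and 1 p per peak, and leaving out each replicate was not run for the same reason. Weak peaks limit what can be seen: the promoter peaks of Dkk1 and Frzb, at 1.79 and 2.55 CPM, had implied SEs of 0.352 and 0.285 on the log2 scale.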

Other observations

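Beyond 50 kb, called peaks near the WNT inhibitors belonged partly to other genes. Downstream of Sfrp2, 2 gained peaks at 73322 bp and 78910 bp were assigned to Tlr2, a Toll-like receptor gene active in macrophages. The authors' deposited table gives them log2 folds of 0.46 and 0.39, with implied SEs of 0.129 and 0.0816, and the first lies on a SINE repeat. Upstream of Frzb, a gained peak at 77171 bp was assigned to Nckap1, which encodes a subunit of the WAVE complex; the authors' deposited table has it at 0.41 on the log2 scale (SE 0.131, FDR 0.0391). Upstream of Dkk3, a lost peak at 67065 bp was assigned to Mical2, which encodes an actin-oxidising enzyme; the authors' deposited table has it at -0.20 on the log2 scale (SE 0.0644, FDR 0.0354). That direction is the one of the Mical2 peak inside the Dkk3 window, which missed the threshold in the deposited test.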
